A study of Mus musculus with 8 samples.

Results

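The cholesterol synthesis enzymes and other target genes of the transcription factor SREBP2 were examined in livers with and without HNF6. The set held 31 genes chosen by name from the pathway, of which 29 were measured among 19540 genes (members below). Each gene was represented by 1 probe set, the one with the highest mean where the platform annotation paired several with its symbol. Acat2 and Mbtps2 were not analysed here. Livers of 4 WT and 4 HNF6KO samples were hybridised to 1 Affymetrix array each. Every sample was labelled as a male of strain C57B/6, 12 weeks old, without treatment, fed chow and sampled at ZT10, which the study gives as 5 pm. HNF6KO stands for a liver depleted of HNF6, the homeodomain factor encoded by Onecut1. The sources used here do not say how HNF6 was depleted or whether each array came from its own animal. The p-values therefore measure only the spread between these samples.

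Hepatocytes build cholesterol from acetyl-CoA. The mevalonate steps make isoprenoid units, these are joined to squalene, squalene is closed to lanosterol, and lanosterol is trimmed and rearranged to cholesterol. SREBP2 switches on nearly all of these enzymes together. It is made as a membrane protein held in the endoplasmic reticulum with its escort SCAP, and INSIG proteins retain that pair when sterols are plentiful. When sterols run low, SCAP carries SREBP2 to the Golgi, where proteases cut it free to enter the nucleus.

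The deposited values run from 3.69 to 14.11 and were read as log2, with array medians between 6.89 and 6.97. Onecut1 was lower on every HNF6KO array (8.67 to 9.32) than on any WT array (9.87 to 10.52). It fell by 1.32 ± 0.18 (SE) on the log2 scale (limma, adjusted p = 0.0273), and that call was lost without WT array 1, 3 or 4 or without HNF6KO array 3 or 4 (adjusted p = 0.0633 to 0.0954). The mean log2 level of hepatocyte markers (10 of 11 measured) was 13.35 to 13.44 on WT and 13.34 to 13.51 on HNF6KO arrays.

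None of the 29 members passed the test between HNF6KO and WT, although most lay slightly lower in HNF6KO. The threshold was an adjusted p of 0.05 in limma over all 19540 genes, which 78 genes or 0.399% passed. The lowest adjusted p of a member was 0.144, for Scap. Of the members, 23 of 29 had a log2 change (HNF6KO minus WT) below 0, and 57.4% of all genes did. The median log2 change was -0.14 over the members and -0.01 over all genes, and the members ran from -0.43 (Insig2) to 0.55 (Aacs). At an unadjusted p under 0.05, 3 members were lower (Scap, Tm7sf2 and Insig2), where all genes gave 5.21%, and 2 were higher (Aacs and Rdh11), where all genes gave 4.30%. This count of 5 was 9 without WT array 3, 3 without WT array 4 or without HNF6KO array 2, 15 when only arrays 1 and 2 of each group were fitted, and 7 with only arrays 3 and 4. The 95% interval of the log2 change lay within -1 to 1 for all 29 members and within -0.5 to 0.5 for 14 of them. The median was -0.07 without WT array 1, -0.04 without WT array 2, -0.23 without WT array 3 and -0.08 without HNF6KO array 4. Leaving out 1 array moved the log2 change by over 1.5 times for 24 of the 29 members and turned its sign for 6 of these. It did neither for Scap, Tm7sf2, Insig2, Aacs and Rdh11. These are the 5 members under an unadjusted p of 0.05 in limma on the same arrays, so this adds no separate support.

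**Figure D1:**
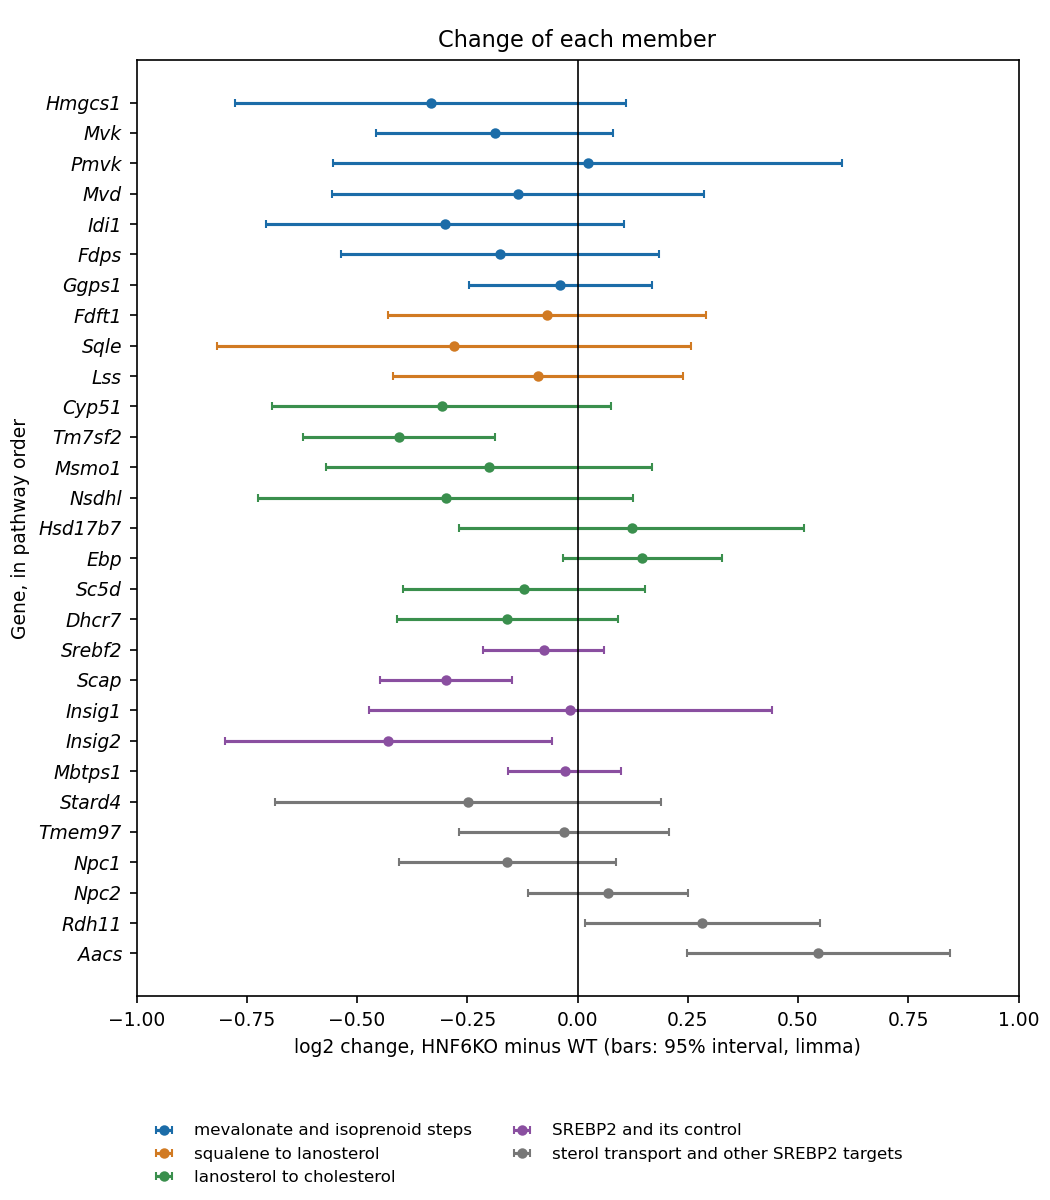
Log2 change of each measured member, HNF6KO minus WT, in pathway order; points are limma estimates from 4 arrays per group, bars are unadjusted 95% intervals and colours are roles in the pathway. Points lie left of 0 for 23 of 29 genes, and the intervals of Scap, Tm7sf2, Insig2, Aacs and Rdh11 do not reach 0.

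Of the genes that control SREBP2, Scap was the member with the smallest p, while the transcript of SREBP2 itself differed little. Srebf2, which encodes SREBP2 (Entrez 20788), had log2 values of 8.93, 9.02, 8.79 and 8.88 over WT arrays 1 to 4, against 8.84, 8.76, 8.90 and 8.82 over HNF6KO arrays 1 to 4. The groups overlap, and the log2 change was -0.08 ± 0.06 (SE, 95% interval -0.21 to 0.06, adjusted p = 0.774). Scap (Entrez 235623), the sterol-sensing escort, had log2 values of 10.34, 10.50, 10.41 and 10.31 over WT arrays 1 to 4. In HNF6KO, in the same order, it had 10.14, 9.96, 10.20 and 10.08. All 4 HNF6KO arrays were thus below all 4 WT arrays, with group means of 10.39 ± 0.08 and 10.09 ± 0.10 (SD, n = 4). The log2 change of Scap was -0.30 ± 0.07, or 1.23-fold lower in HNF6KO (95% interval -0.45 to -0.15, adjusted p = 0.144), and its adjusted p stayed between 0.0822 and 0.392 over all alternatives tried.

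Neither INSIG gene passed, and the difference between their changes was not tested. Insig2 (Entrez 72999), whose transcript in liver is not driven by SREBP2 in the way Insig1 is, had log2 values of 10.25, 10.39, 10.83 and 11.02 over WT arrays 1 to 4, against 10.19, 10.0007, 10.33 and 10.26 over HNF6KO arrays 1 to 4. The HNF6KO arrays lay close to WT arrays 1 and 2, and WT arrays 3 and 4 stood above all others. Its log2 change was -0.43 ± 0.16 (95% interval -0.80 to -0.06, adjusted p = 0.434), with -0.22 for arrays 1 and 2 alone and -0.63 for arrays 3 and 4 alone. Insig1 (Entrez 231070), a direct SREBP2 target and the feedback arm of the system, had log2 values of 12.35, 12.19, 11.66 and 11.42 over WT arrays 1 to 4. In HNF6KO, in the same order, it had 12.16, 11.83, 11.65 and 11.93. Among the WT arrays the order of Insig1 was the reverse of that of Insig2. Insig1 had a log2 change of -0.02 ± 0.20, with a wide 95% interval of -0.47 to 0.44 (adjusted p = 0.991). Mbtps1, the Golgi protease that makes the first cut in SREBP2, ranged only from 8.79 to 8.97 over all arrays. Its log2 change was -0.03 ± 0.06 (adjusted p = 0.942).

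**Figure D2:**
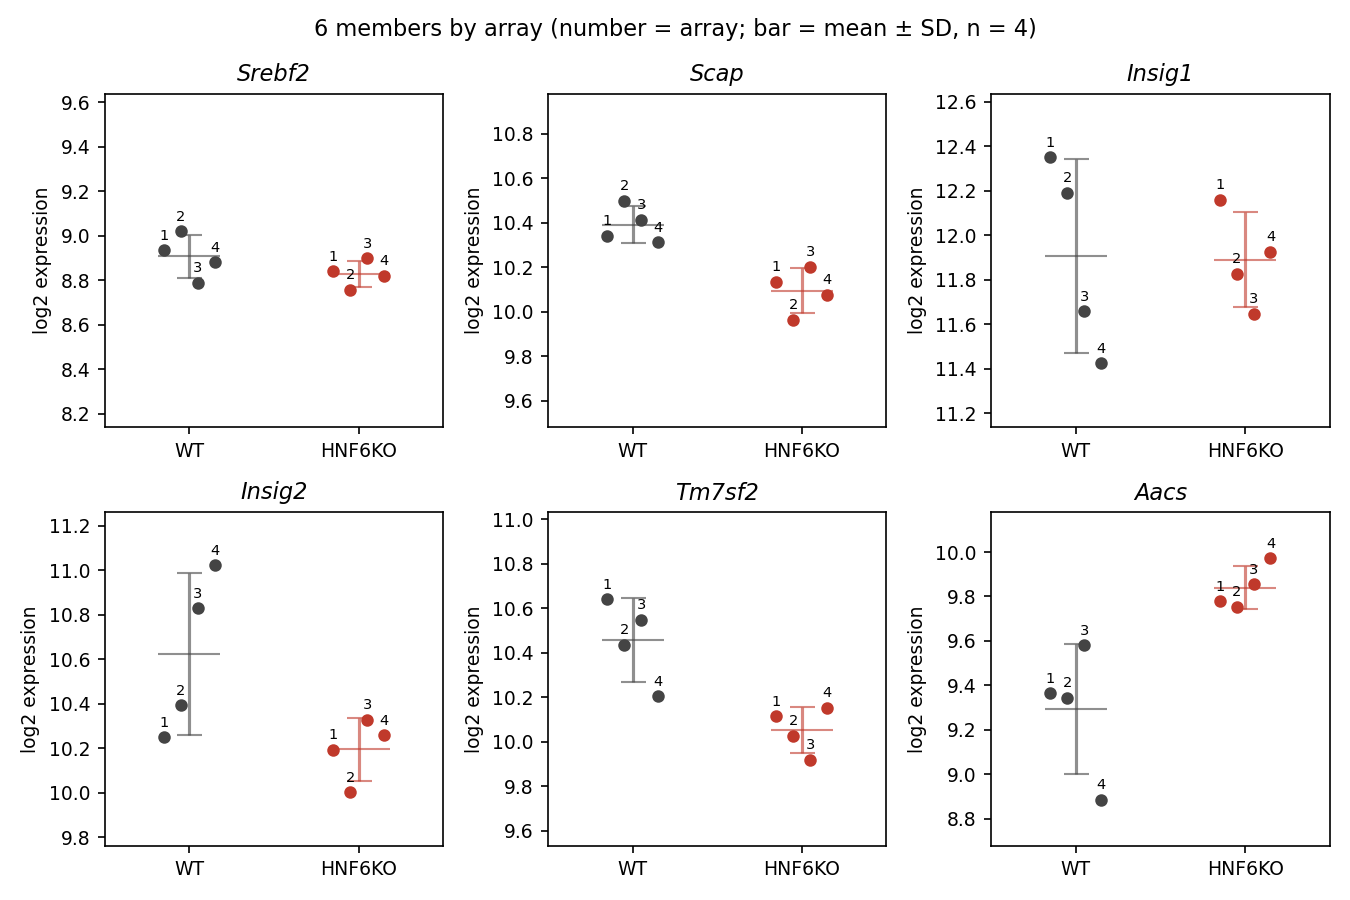
Log2 expression of 6 members on each array, numbered, in WT (grey) and HNF6KO (red), with the mean and SD of 4 arrays; every panel spans the same 1.5 log2 units. Scap and Tm7sf2 lie lower and Aacs higher on all HNF6KO arrays, while Srebf2, Insig1 and Insig2 overlap between groups.

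The mevalonate and isoprenoid genes leaned low with wide error. Of 7 measured, 6 had a log2 change below 0 and 0 passed (median -0.18, adjusted p = 0.663 to 0.990). Hmgcs1 (Entrez 208715), the cytosolic HMG-CoA synthase that opens the mevalonate branch, had log2 values of 11.55, 11.78, 10.88 and 11.58 over WT arrays 1 to 4, against 11.29, 10.95, 11.38 and 10.84 over HNF6KO arrays 1 to 4. WT array 3 was as low as the lowest HNF6KO arrays, so the groups overlap. The log2 change of Hmgcs1 was -0.33 ± 0.20 (95% interval -0.78 to 0.11, adjusted p = 0.663). Idi1, the isomerase of the isoprenoid units, had -0.30 ± 0.18, and its dimmer probe set gave -0.32 ± 0.18. The kinase genes had log2 changes of -0.19 ± 0.12 for mevalonate kinase Mvk and 0.02 ± 0.26 for phosphomevalonate kinase Pmvk. Pmvk had the largest residual SD of any member (0.44), and its WT arrays 1 and 2 (9.69 and 9.53) stood far above WT arrays 3 and 4 (8.63 and 8.73). The decarboxylase gene Mvd showed the same split of WT arrays, with 8.58, 8.50, 7.72 and 7.86 on arrays 1 to 4, while its HNF6KO arrays ranged only from 7.91 to 8.13. Its log2 change was -0.14 ± 0.19. Fdps, the farnesyl diphosphate synthase, had -0.18 ± 0.16. Ggps1, the geranylgeranyl diphosphate synthase of the protein prenylation branch, had -0.04 ± 0.09.

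Genes of the steps from squalene to lanosterol were also within the spread between arrays. All 3 had a log2 change below 0 and 0 passed (adjusted p = 0.793 to 0.953). Sqle, the squalene epoxidase and a point of flux control, had log2 values of 9.89, 9.95, 9.16 and 9.77 over WT arrays 1 to 4, against 9.31, 9.50, 9.95 and 8.88 over HNF6KO arrays 1 to 4. The HNF6KO arrays alone spanned 1.07 log2 units, from below the lowest WT array to the level of the highest. The log2 change of Sqle was -0.28 ± 0.24, and it ran from -0.10 without HNF6KO array 4 to -0.46 without HNF6KO array 3. It was -0.07 ± 0.16 for the squalene synthase Fdft1 and -0.09 ± 0.15 for the lanosterol synthase Lss.

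The steps from lanosterol to cholesterol held Tm7sf2, the synthesis enzyme with the smallest p, beside neighbours that went either way. Of 8 measured, 6 had a log2 change below 0 and 0 passed (median -0.18, adjusted p = 0.169 to 0.895). Tm7sf2 (Entrez 73166), a sterol reductase acting after the demethylase Cyp51, had log2 values of 10.64, 10.44, 10.55 and 10.20 over WT arrays 1 to 4. In HNF6KO, in the same order, it had 10.11, 10.03, 9.92 and 10.15. All HNF6KO arrays were below all WT arrays, although WT array 4 was only slightly higher than HNF6KO array 4. The log2 change of Tm7sf2 was -0.40 ± 0.10, or 1.32-fold lower in HNF6KO (95% interval -0.62 to -0.19, adjusted p = 0.169, and 0.0650 without WT array 4). Arrays 1 and 2 alone gave -0.47, and arrays 3 and 4 alone gave -0.34. Unlike most enzymes, Tm7sf2 was not lowest on WT array 3.

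Cyp51 (Entrez 13121), the lanosterol demethylase, had log2 values of 10.79, 10.92, 10.19 and 10.55 over WT arrays 1 to 4, against 10.43, 10.25, 10.55 and 9.98 over HNF6KO arrays 1 to 4. The groups overlap through WT array 3, and WT array 4 was level with HNF6KO array 3. The log2 change of Cyp51 was -0.31 ± 0.17 (95% interval -0.69 to 0.08, adjusted p = 0.634). The sterol dehydrogenase gene Nsdhl had -0.30 ± 0.19, the methylsterol oxidase gene Msmo1 had -0.20 ± 0.16, the desaturase gene Sc5d had -0.12 ± 0.12 and the late reductase gene Dhcr7 had -0.16 ± 0.11. Nsdhl had -0.13 without HNF6KO array 2, and Msmo1 had -0.057 without HNF6KO array 4. Ebp (Entrez 13595), the sterol isomerase, lay the other way, with 10.45, 10.47, 10.42 and 10.61 over WT arrays 1 to 4, against 10.65, 10.83, 10.55 and 10.50 over HNF6KO arrays 1 to 4. Its groups overlap, and the log2 change was 0.15 ± 0.08 (95% interval -0.03 to 0.33, adjusted p = 0.622). The ketosteroid reductase gene Hsd17b7 had 0.12 ± 0.17.

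Among sterol transport genes and other SREBP2 targets, Aacs was higher on every HNF6KO array. Aacs (Entrez 78894) encodes acetoacetyl-CoA synthetase, which feeds ketone bodies into lipid synthesis in the cytosol. It read 9.37, 9.35, 9.58 and 8.89 over WT arrays 1 to 4, against 9.78, 9.75, 9.85 and 9.97 over HNF6KO arrays 1 to 4. The groups do not overlap, and WT array 4 was the lowest of all arrays. The means were 9.29 ± 0.29 in WT and 9.84 ± 0.10 in HNF6KO (SD, n = 4). The log2 change was 0.55 ± 0.13, or 1.46-fold higher in HNF6KO (95% interval 0.25 to 0.84, adjusted p = 0.176). Aacs was thus the member with the largest change in size, opposite in sign to most enzymes. With Scap and Tm7sf2 it made 3 members whose groups do not overlap, 2 lower, where 3.21% of all genes were separated that way, and 1 higher, where 2.45% were.

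Rdh11 (Entrez 17252), a retinol dehydrogenase also driven by SREBP, had log2 values of 8.63, 8.55, 8.10 and 8.23 over WT arrays 1 to 4, against 8.56, 8.61, 8.80 and 8.68 over HNF6KO arrays 1 to 4. WT arrays 1 and 2 were level with HNF6KO arrays 1 and 2. The log2 change of 0.28 ± 0.12 (95% interval 0.02 to 0.55, adjusted p = 0.489) was 0.57 within arrays 3 and 4 alone, while arrays 1 and 2 alone gave -0.0029. Stard4, a carrier that moves sterol between membranes, had -0.25 ± 0.19, with WT arrays 1 and 2 (10.39 and 10.19) above all other arrays (-0.095 without WT array 1). The late endosomal exporters had -0.16 ± 0.11 for Npc1, which was -0.044 without HNF6KO array 2, and 0.07 ± 0.08 for Npc2. Tmem97, an NPC1-binding membrane protein, had -0.03 ± 0.10, and its dimmer probe set had 0.04 ± 0.09.

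Most of the spread of these genes was between arrays of the same group, and the enzymes tended to be high or low on the same arrays. The median residual SD (the spread within groups) was 0.24 over the members and 0.10 over all genes, and it was above 0.2 for 16 of 29 members, where 12.0% of all genes were. In WT, array 3 was the lowest array for 18 of 29 members (25.9% of all genes) and for 15 of the 18 synthesis enzymes. Array 1 or 2 was the highest WT array for 21 of 29 members (47.5% of all genes). In HNF6KO, array 4 was the lowest for 13 of 29 members (26.3% of all genes) and for 12 of the 18 enzymes. Against the WT mean, the median enzyme stood at 0.14, 0.26, -0.37 and 0.01 over WT arrays 1 to 4. Over HNF6KO arrays 1 to 4 it stood at -0.05, -0.22, -0.02 and -0.32. The WT arrays alone thus covered a wider range than the gap between the groups. The SD over WT arrays exceeded that over HNF6KO arrays for 19 of 29 members, while this held for 32.1% of all genes.

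**Figure D3:**
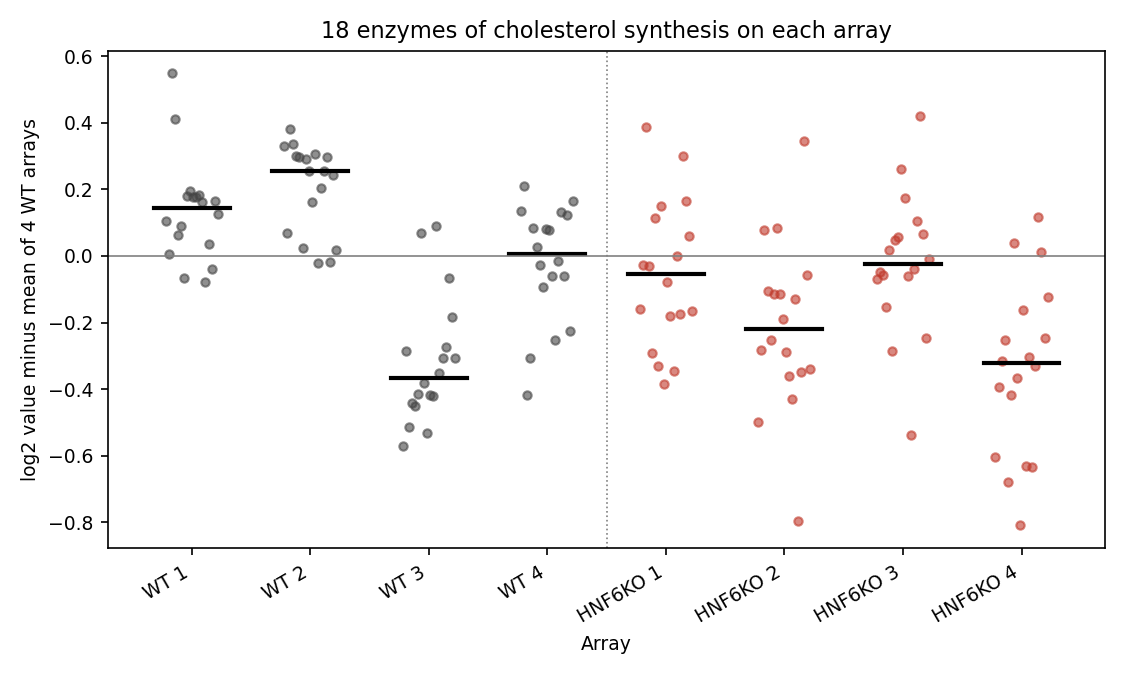
Each point is 1 of 18 cholesterol synthesis enzymes on 1 array, as its log2 value minus its mean over the 4 WT arrays; black bars are medians. The median falls from 0.26 on WT array 2 to -0.37 on WT array 3, and the 4 HNF6KO medians lie between -0.32 and -0.02.

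The lean toward lower values was larger within the arrays numbered 1 and 2. Within them, 26 of 29 members were lower in HNF6KO (49.9% of all genes), with a median of -0.23. Within arrays 3 and 4, 15 of 29 were lower (58.8% of all genes), with a median of -0.02. Onecut1 itself had a log2 change of -0.83 within arrays 1 and 2, where it did not pass in limma (adjusted p = 0.171). It had -1.80 within arrays 3 and 4. On both sides of this split 15 of the 29 members lay below 0, among them Scap, Tm7sf2 and Insig2. On both sides 3 lay above 0 (Aacs, Ebp and Npc2). The split is not given by the labels. It was known from earlier results of these data, and the difference between its sides was not tested. The mean log2 level of the Kupffer cell markers (12 of 12 measured) ran from 7.63 to 8.84 on WT and from 7.68 to 9.26 on HNF6KO arrays. It was 7.63, 8.46, 8.72 and 8.84 over WT arrays 1 to 4, against 8.19, 7.68, 9.26 and 9.02 over HNF6KO arrays 1 to 4, so it was higher on arrays 3 and 4 in both groups. The sinusoidal endothelial markers (10 of 10 measured) ran from 8.41 to 9.25 on WT and from 8.38 to 9.39 on HNF6KO arrays, and likewise were highest on arrays 3 and 4. The stellate cell markers (10 of 10 measured) ran from 8.18 to 8.65 on WT and from 8.24 to 8.66 on HNF6KO arrays, again highest on arrays 3 and 4 in both groups. Within its group the Kupffer level was highest on WT array 4 and HNF6KO array 3, where the enzyme medians were 0.01 and -0.02. The endothelial level was highest on WT array 3 and HNF6KO array 4, where the enzyme medians were -0.37 and -0.32. The endothelial level was lowest on WT array 1 and HNF6KO array 2, where the enzyme medians were 0.14 and -0.22. The stellate level was highest on WT array 3 and HNF6KO array 3, where the enzyme medians were -0.37 and -0.02. The part of these cells in the members' values was not tested, and in bulk tissue fewer cells of a type and less RNA per cell cannot be told apart.

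**Figure D4:**
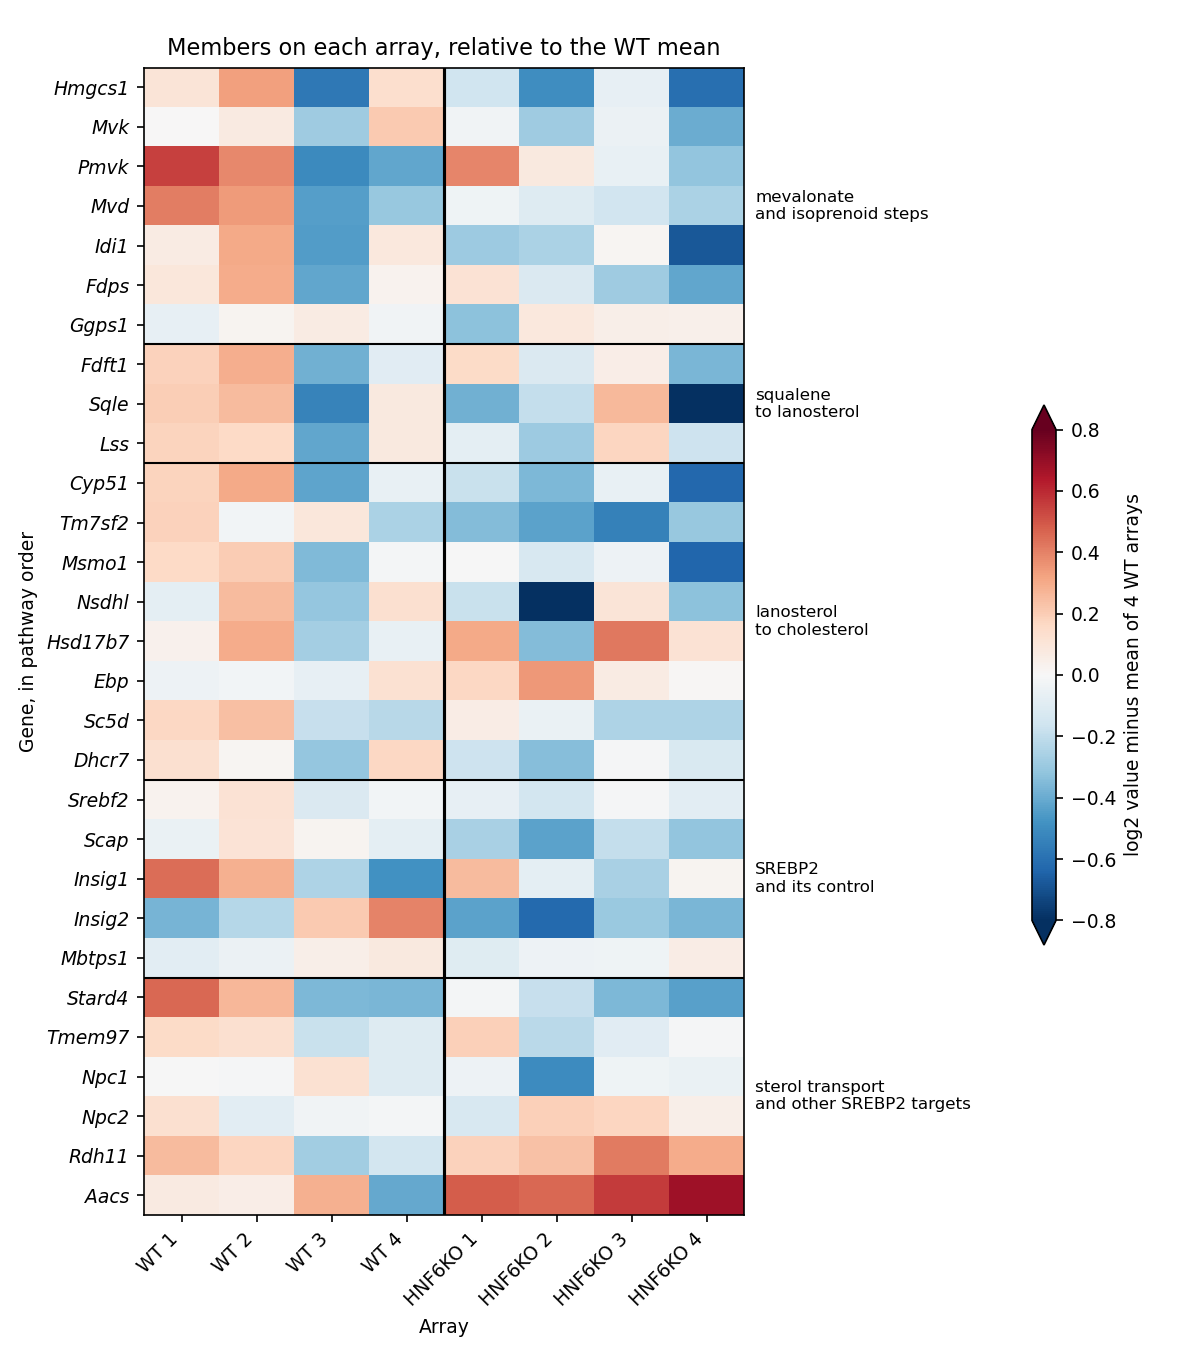
Heat map of 29 members (rows, in pathway order, grouped by role) on 8 arrays (columns), as the log2 value minus the mean of the 4 WT arrays, with the colour scale ending at 0.8 in either direction. WT array 3 is blue for most enzymes, while Scap and Tm7sf2 are blue and Aacs red on all 4 HNF6KO arrays.

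The members' promoters were searched for the letters that SREBP2 and its partner NF-Y bind, and for the HNF6 core. RefSeq windows of 250 bases before to 50 after a start (GRCm38.p6) were found for 24 of the 29 members. The NF-Y letters CCAAT, on either strand, were in the windows of 21 of 24 members (87.5%) and of 41.6% of 15328 measured genes with a window. The letters TCACNCCAC, used here for the sterol regulatory element, were in 1 of 24 members (Hmgcs1) and in 1.41% of measured genes. Sterol elements with other letters, or outside the windows, were not searched for. For the HNF6 core the letters ATCNAT were used, with any base at N. They were in 4 of 24 members (16.7%), Insig2, Tm7sf2, Srebf2 and Ebp, and in 19.6% of measured genes. A match is only a description of these letters. The members were chosen as pathway genes and SREBP2 targets, and a link between these letters and the array values was not tested. The 250 bases before the start are shown for Hmgcs1 as the window with the match to TCACNCCAC. They are also shown for Tm7sf2 and Insig2, as members with a match to ATCNAT and an unadjusted p under 0.05. Capitals mark matches to any of the motifs. In Hmgcs1 (chr13:119690101-119690350, plus strand) TCACCCCAC is the sterol element and ATTGG is CCAAT on the other strand. In Tm7sf2 (chr19:6067851-6068100, minus strand) ATGGAT reads ATCCAT on the other strand, a match to ATCNAT with C at N. In Insig2 (chr1:121332590-121332839, minus strand, 1 of 3 windows of this gene) the run CCAATCTAT holds overlapping matches to CCAAT and to ATCNAT (with T at N).
Hmgcs1: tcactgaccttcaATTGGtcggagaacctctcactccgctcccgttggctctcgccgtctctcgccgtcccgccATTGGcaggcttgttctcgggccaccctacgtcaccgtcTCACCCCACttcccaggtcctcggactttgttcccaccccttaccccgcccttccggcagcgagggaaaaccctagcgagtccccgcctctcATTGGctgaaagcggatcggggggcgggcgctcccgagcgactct
Tm7sf2: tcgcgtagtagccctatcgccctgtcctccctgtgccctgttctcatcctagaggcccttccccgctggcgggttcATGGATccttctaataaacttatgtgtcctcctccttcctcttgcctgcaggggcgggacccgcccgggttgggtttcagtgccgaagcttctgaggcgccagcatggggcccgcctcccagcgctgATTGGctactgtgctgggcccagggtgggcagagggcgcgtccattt
Insig2: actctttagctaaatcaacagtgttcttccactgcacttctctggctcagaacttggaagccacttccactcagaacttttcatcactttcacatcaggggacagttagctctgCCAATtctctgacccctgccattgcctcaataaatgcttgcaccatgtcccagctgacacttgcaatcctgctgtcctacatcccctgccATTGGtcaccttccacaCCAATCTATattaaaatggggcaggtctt

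Outside the members, the genes that degrade or traffic the SREBP machinery held 1 gene that passed. Of 23 measured, Rnf145 rose, 0 fell and 22 did not pass (median log2 change 0.01). Rnf145 (Entrez 74315) encodes a sterol-responsive ubiquitin ligase of the endoplasmic reticulum that acts on SCAP. It read 8.24, 8.07, 8.23 and 7.93 over WT arrays 1 to 4, against 8.50, 8.74, 8.58 and 8.69 over HNF6KO arrays 1 to 4, with no overlap. The log2 change was 0.51 ± 0.08 (adjusted p = 0.0489). That p sits at the threshold, and the call was lost under 15 of 21 alternatives, among them each of the 8 arrays left out in turn (adjusted p = 0.0539 to 0.182). Paqr3, a Golgi protein that anchors the SCAP and SREBP pair, was lower on all 4 HNF6KO arrays (7.36 to 7.58) than on any WT array (7.74 to 8.11) but did not pass, with a log2 change of -0.45 ± 0.08 (adjusted p = 0.0806). Paqr3 passed (adjusted p = 0.0433) in a fit with a term that sets arrays 1 and 2 apart from the rest. Without HNF6KO array 2 the 1 gene of this list that passed was Trim2, a ubiquitin ligase gene named after its values were seen (log2 change 0.41, adjusted p = 0.0473). Rnf139, another sterol-sensing ubiquitin ligase gene, had -0.27 ± 0.08 (adjusted p = 0.314).

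The other pathway lists held no gene that passed in limma. Of 9 measured genes among further cholesterol pathway and SREBP target genes, 0 passed (median 0.06, 1 higher and 1 lower at an unadjusted p under 0.05). At that p all genes gave 4.30% higher and 5.21% lower. Erg28, a scaffold of the sterol demethylation complex, had a log2 change of -0.35 ± 0.12 (adjusted p = 0.354), in the direction of the Tm7sf2 and Cyp51 estimates, with HNF6KO arrays at 10.82 to 11.07 and WT arrays at 10.99 to 11.49. The elongase Elovl5 and the desaturase Fads1, which serve polyunsaturated fatty acids, had 0.29 ± 0.08 (adjusted p = 0.256) and 0.19 ± 0.09 (adjusted p = 0.537). Of 19 measured genes of the dolichol, ubiquinone and prenylation branches of the mevalonate pathway, 0 passed (median 0.07, 1 higher and 2 lower at an unadjusted p under 0.05). There Rabggta, a subunit of the enzyme that prenylates Rab proteins, had -0.27 ± 0.06 (adjusted p = 0.171) and was lower on all HNF6KO arrays. The dolichol kinase gene Dolk had -0.11 ± 0.05 (adjusted p = 0.508) and Trit1, a transfer RNA isopentenyl transferase gene, had 0.20 ± 0.08 (adjusted p = 0.484).

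The listed targets of LXR, the receptor for oxidised sterols, and the listed storage and export genes gave no called change over all arrays either. The sterol-responsive Rnf145, given above, was not in these lists. Of 14 measured LXR targets, 0 passed (median 0.05, 1 higher and 0 lower at an unadjusted p under 0.05). All genes gave 4.30% higher and 5.21% lower at that p. The apolipoprotein gene Apoc1 had 0.11 ± 0.04 (adjusted p = 0.482). The sterol exporter Abcg5 had 0.23 ± 0.15 (adjusted p = 0.701), with -0.17 for arrays 1 and 2 alone but 0.63 for arrays 3 and 4 alone, where it passed (adjusted p = 0.0323). It was 0.14 without HNF6KO array 4. The phosphodiesterase gene Smpdl3a had -0.23 ± 0.19 (adjusted p = 0.781), and -0.029 without HNF6KO array 2. Of 28 measured genes for storage, uptake, export and trafficking, 0 passed (median -0.0016, 1 higher and 2 lower at an unadjusted p under 0.05). The sterol hydroxylase gene Cyp27a1 had -0.33 ± 0.10 (adjusted p = 0.327), the endosomal sterol carrier gene Stard3 had -0.16 ± 0.07 (adjusted p = 0.489) and the HDL receptor gene Scarb1 had 0.28 ± 0.12 (adjusted p = 0.497).

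Genes of fatty acid synthesis, the counterpart pathway that SREBP1 drives, gave no called change in the fit over all arrays. Of 17 measured, 0 passed in limma. At an unadjusted p under 0.05, 5 were higher, where all genes gave 4.30%, and 0 were lower, where all genes gave 5.21%. The log2 change was above 0 for 13 and below 0 for 4 (median 0.37), and 57.4% of all genes lay below 0. The carboxylase genes Acacb and Acaca had 0.74 ± 0.14 (adjusted p = 0.0806) and 0.45 ± 0.14 (adjusted p = 0.307), and the desaturase gene Scd1 had 1.08 ± 0.29 (adjusted p = 0.239). Acacb passed with a term for the split of arrays 1 and 2 from 3 and 4 (adjusted p = 0.0398) and within arrays 1 and 2 alone (log2 change 0.97, adjusted p = 0.0345). Thrsp, a lipogenic gene singled out after its values were seen, had a log2 change of 0.88 and passed with the array number as a block (adjusted p = 0.0489) and with the split as a term (adjusted p = 0.0246). The difference between this list and the cholesterol enzymes was not tested.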

How the data were processed

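The authors deposited 1 table with a summarised value per probe set and array, read here as log2 values from their range (processing before deposit not stated). The sources used here do not give the log base, background correction, normalization or summarisation. Per the labels' protocols, total RNA was extracted with Trizol and biotin-labelled with a whole-transcript kit. Of 22725 probe sets, 21113 had 1 gene symbol, 43 several and 1569 none here. Probe sets may bind processed copies or relatives of a gene. Groups of 4 arrays limit the precision.

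HNF6KO and WT were compared over 19540 genes by limma 3.58.1 (lmFit, eBayes; R 4.3.3), adjusted by Benjamini-Hochberg. The step was tested on simulated data. Intervals are moderated 95% intervals. Members and lists were chosen with earlier results of these data known. Values per array are given for Srebf2, Scap, Insig1, Insig2 and the 8 members with the smallest p, with up to 3 genes per list by p. Pmvk, Mvd, Sqle, Stard4 and Mbtps1 values, and Thrsp and Trim2, were added after they were seen. Alternatives were other normalizations, variance models, filters, thresholds, probe set rules, array splits and omissions. No array was a copy of another (Pearson r 0.987 to 0.997).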

Additional observations from a re-analysis of the deposited data

Results flagged for a closer look

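In 3 of 58 member groups of 4 arrays, 1 array stood far from the other 3, measured as its gap to the nearest divided by the whole range; chance gives about 1 in 20. Npc1 was 10.75 on HNF6KO array 2 and 11.20 to 11.22 on the others (gap 0.967 of the range). Ggps1 was 7.67 on HNF6KO array 1 and 8.04 to 8.08 on the others (0.892 of the range). Lss was 8.55 on WT array 3 and 9.05 to 9.15 on the others (0.830 of the range), the array on which most synthesis enzymes were lowest.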

How the results depend on the processing

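No member passed an adjusted p of 0.05 under any of the 21 refits, whose lowest adjusted p was 0.0650, nor at 0.1 in limma, and 5 lay under an unadjusted p of 0.05 (15 within arrays 1 and 2, and 3 to 9 with single arrays left out). The median change stayed below 0, from -0.229 to -0.0441 with single arrays left out, and 20 to 24 of 29 members were below 0 (26 within arrays 1 and 2, and 15 within arrays 3 and 4). The sign held under all refits for 16 members. Among members and the named genes of other lists (Smpdl3a, Abcg5), it turned within arrays 3 and 4 for Mvd (0.17), Fdft1 (0.081), Lss (0.17), Dhcr7 (0.0062), Srebf2 (0.024), Insig1 (0.25), Tmem97 (0.090), Ggps1 (0.024) and Smpdl3a (0.057). Within arrays 1 and 2 it turned for Pmvk (-0.23), Hsd17b7 (-0.19), Rdh11 (-0.0029) and Abcg5 (-0.17). Without HNF6KO arrays 3 and 4 it turned for Fdps (0.00047), Fdft1 (0.018), Hsd17b7 (-0.023), Sc5d (0.0026), Insig1 (0.087) and Abcg5 (-0.040). Array quality weights turned Pmvk (-0.14) and Ggps1 (0.018), and the mean of probe sets turned Tmem97 (0.0041). With single arrays left out, Pmvk ran from -0.15 to 0.21, Mvd from -0.28 to 0.0015, Fdft1 from -0.20 to 0.031, Insig1 from -0.18 to 0.13, Tmem97 from -0.11 to 0.030 and Ggps1 from -0.080 to 0.058. None of these changes was called, and the cause was not tested.

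Array numbers are shared by the groups, but do not clearly pair the samples: deviations from the group means correlated at 0.439, 0.167, 0.506 and 0.0233 for numbers 1 to 4. With the number as a replicate block, 0 members passed, the median was -0.135 and 23 were below 0, as without it, while Rnf145 lost its call (adjusted p = 0.0925) and Thrsp of the fatty acid synthesis list gained one (adjusted p = 0.0489). Of the 4 WT arrays, 2 correlated best with their own number. The spread between 4 arrays limits what could be called, and the 95% intervals of the members reach -0.82 (Sqle) and 0.84 (Aacs).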

Other observations

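Markers of the other cell types in liver gave no called difference in limma. All 12 Kupffer cell and all 10 sinusoidal endothelial markers had a log2 change above 0 (medians 0.10 and 0.11), while 57.4% of all genes lay below 0. Of either list, 0 lay under an unadjusted p of 0.05, and the mean levels overlapped between the groups. Markers of 1 cell type can move together, so they are not separate observations. The 10 stellate cell markers had a median of 0.06 and the 6 measured cholangiocyte markers 0.02, with 0 under an unadjusted p of 0.05. Of 10 lymphocyte and neutrophil markers, 1 was higher at that p (median 0.03), and of 10 hepatocyte markers 1 was higher (median 0.03). All genes gave 4.30% higher.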
